A study of Saccharomyces cerevisiae with 6 samples.

Results

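The genes described here encode the proteins of the small subunit of the cytosolic ribosome in the budding yeast Saccharomyces cerevisiae. They were chosen by name alone, as every non-control probe whose standard gene name is RPS with a number and an optional A or B, and not by any measured value. The rule gave 56 genes of the 6256 on the array, which make up 24 pairs of an A and a B copy and 8 single-copy genes, and so 32 proteins. All 56 were well above background on all 6 arrays and all were tested. Cells sampled after 9 h of fermentation on xylose (3 arrays) were compared with cells sampled after 3 h on glucose (3 arrays), each sugar being supplied at 50 g/L. Sugar and time differed together, so neither can be told apart from the other in any difference below. The sources used here do not give the strain, its alleles or the number of cultures. The glucose titles say 3 h although 1 other label says 9 h, and p-values measure only the spread between these arrays, which may be technical.

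The small subunit binds the mRNA, scans for the start codon and holds the decoding site where codon and anticodon are matched. Its proteins are needed in equal numbers, one of each per ribosome, and in yeast most are encoded by 2 genes kept from an ancient duplication of the whole genome, the copies of a pair being nearly or fully identical in protein. Ribosomal protein genes are among the most highly transcribed in growing yeast and are known to be controlled together, through the promoter-binding factors Rap1, Fhl1, Ifh1 and Sfp1 and the TOR and protein kinase A pathways, which act on growth rate and nutrients. Because the copies are so alike, a probe may also bind RNA of its partner. Probe sequences were not used here, so how far each probe tells its copy apart was not tested, and each copy's values below are those of its probe.

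The arrays did not group evenly. Levels are log2 signals relative to the 75th percentile of the array, and across the genes tested xylose replicates 1 and 2 correlated at r = 0.993 while glucose replicate 2 correlated with the other arrays at 0.837 to 0.872, against 0.883 or more for every pair of the others. LEU2 and MET17, whose levels were -9.07 to -7.88 on the other 5 arrays, stood at 0.34 and 4.57 in glucose replicate 2, and ASP3-1 stood at -8.55 there against 2.87 to 3.99 on the others. LEU2 and MET17 are often deleted as markers in laboratory yeasts and the ASP3 genes are missing from many strains, and whether this array holds RNA of another strain was not tested. Every 6-array difference below includes it. These correlations run across genes, which are not independent replicates, and describe the arrays only. For both sugars, replicates 1 and 2 were on slide 1 and replicate 3 on slide 2. The main comparison uses all 6 arrays, and the fit without glucose replicate 2 is given beside it where it changes the call or the sign of a member described array by array.

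As a group the small-subunit genes had lower signal in xylose than in 2 of the 3 glucose arrays, and higher signal than in the third. Relative to each gene's own mean over the 6 arrays, the median of the 56 genes was -0.17, -0.27 and -0.19 in xylose replicates 1 to 3, against 0.72, -0.66 and 0.63 in glucose replicates 1 to 3. Glucose replicate 2 gave the lowest level of all arrays for 40 of the 56 genes, where it did so for 25.2% of all genes tested. Glucose replicates 1 and 3 gave the highest level for 24 and 31 genes. All 3 xylose arrays lay below both of these glucose arrays for 44 of the 56 genes, where 20.2% of all genes did.

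**Figure D1:**
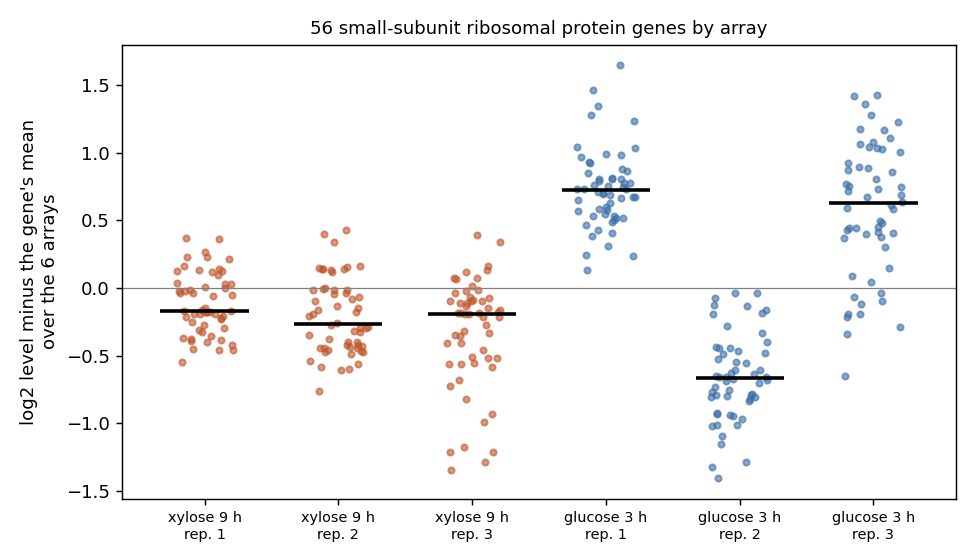
Log2 level of each of the 56 small-subunit ribosomal protein genes minus that gene's mean over the 6 arrays (vertical axis), by array (horizontal axis), 1 point per gene and a bar at the median. The medians of the xylose arrays lie between -0.27 and -0.17, while those of the glucose arrays are 0.72, -0.66 and 0.63, so that glucose replicate 2 sits below the xylose arrays and the other glucose arrays above them.

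With all 6 arrays none of the 56 genes differed between the sugars by limma at an adjusted p under 0.05, where 2.52% of all genes tested were called, and 3 of them had an unadjusted p under 0.05 (16.5% of all genes). The log2 difference, xylose minus glucose, was below 0 for 52 of the 56 genes, against 48.4% of all genes. It ran from -1.25 to 0.59 with a median of -0.44, where the median of all genes tested was 0.02. The adjusted p ran from 0.183 to 0.960. Its standard error had a median of 0.43, against 0.33 for all genes, and the 95% confidence interval lay within 1 either way for 4 of the 56 genes, against 34.4% of all genes, so that the data leave differences of 2-fold possible for most members. Centred on the spike-in controls the median of all genes moved to -0.67 and that of the small-subunit genes to -1.13. This centring lowers the difference of every gene by the same amount. All 56 differences were then below 0 and none was called, but the share of all genes below 0 was not counted. The spike-in level relative to the 75th percentile was lowest in glucose replicate 1 and highest in xylose replicate 2. On the other arrays the sugars overlapped in that level, so the shift rests largely on those named arrays.

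Without glucose replicate 2, 23 of the 56 genes were lower in xylose by limma at an adjusted p under 0.05 and none was higher, where 5.65% of all genes were called lower and 11.5% in either direction. The median difference of the 56 was then -0.95, against 0.04 for all genes, with 54 genes below 0 and 25 more than 2-fold lower. This array was singled out for values seen in earlier work on these data, so these calls describe what the other 5 arrays hold. They rest as well on counting xylose replicates 1 and 2 as 2 samples: with their average as 1 sample, 0 of the 56 genes were called lower (0.711% of all genes), with 34 at an unadjusted p under 0.05 and the lowest adjusted p at 0.0655, while the median stayed at -0.94. With normexp background correction in place of the scanner's, 1 of the 56 genes was called lower without glucose replicate 2, where 0.830% of all genes were. The count was 3 with spike-in centring (2.27% of all genes), 21 with quantile normalization (6.64%) and 53 with the slide as a block (30.8%). In these fits the median of the 56 genes was -0.98 with normexp and -1.80 with spike-in centring. It was -0.75 with quantile normalization and -0.93 with the slide block. The medians of all genes were 0.25, -0.81, -0.0005 and 0.02 in the same order. Within slide 1 the median difference of the 56 genes was -0.21 and within slide 2, which lacks glucose replicate 2, it was -0.96. In such bulk samples, fewer cells with high levels and less RNA per cell cannot be told apart.

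**Figure D2:**
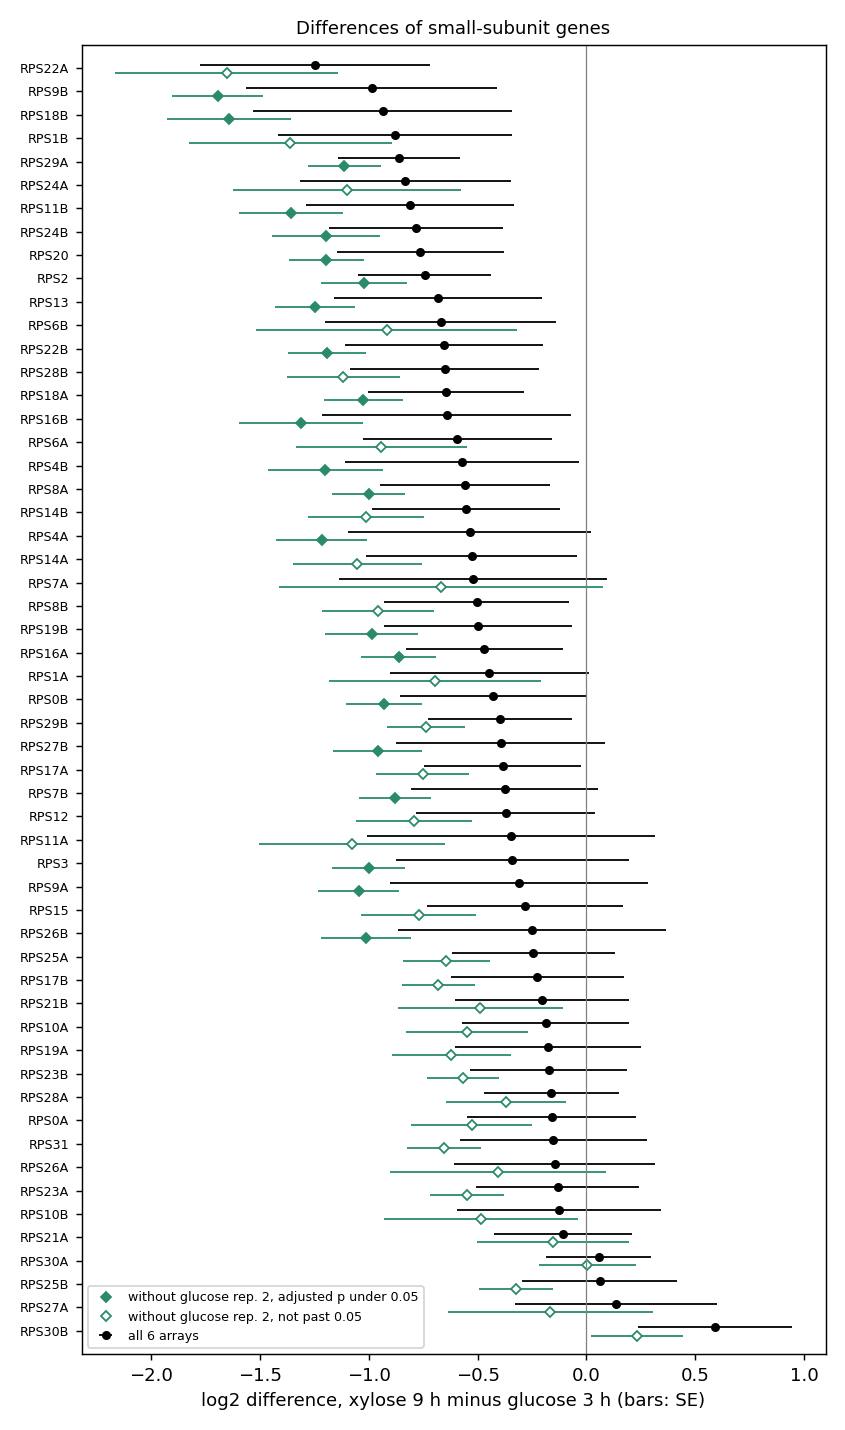
Log2 difference of 55 of the small-subunit genes, xylose 9 h minus glucose 3 h (horizontal axis, bars are SE), ordered by the value with all 6 arrays, for all 6 arrays (black) and without glucose replicate 2 (green; filled where the limma adjusted p was under 0.05). No black point passed the threshold, 51 of 55 lie below 0, and the 22 filled green points all lie below 0.

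The 8 single-copy genes have no partner copy. All 8 differences were below 0, against 48.4% of all genes, and none was called with all arrays. RPS2, a protein at the mRNA entry whose mutations change decoding accuracy, had levels of 3.89, 3.87 and 4.15 in the xylose replicates, against 4.87, 4.15 and 5.11 in the glucose replicates. The groups just failed to meet, at 4.15 after rounding in xylose replicate 3 and glucose replicate 2, and RPS2 was 1 of the 2 members whose groups did not overlap, both lower in xylose (10.9% of all genes were separated that way). Its difference was -0.74 ± 0.31 (SE, limma adjusted p = 0.287), and -1.02 (limma adjusted p = 0.0332) without glucose replicate 2. RPS3, which lines the mRNA entry channel, had 3.53, 3.52 and 3.61 in the xylose replicates, against 4.52, 2.57 and 4.58 in the glucose replicates. Only glucose replicate 2 lay below the xylose levels of RPS3, by about 1 log2 unit, and its difference was -0.34 ± 0.54, or -1.0 (limma adjusted p = 0.0235) without that array.

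RPS20, a head protein that is ubiquitinated when ribosomes collide, had 2.55, 2.46 and 2.54 in the xylose replicates, against 3.64, 2.41 and 3.78 in the glucose replicates. Its glucose replicate 2 lay just under the 3 xylose arrays and the other 2 glucose arrays more than 1 log2 unit above them, for a difference of -0.76 ± 0.39 (SE, limma adjusted p = 0.390). RPS13, a conserved protein of the subunit's core, had 1.79, 1.65 and 1.73 in the xylose replicates, against 2.84, 1.27 and 3.10 in the glucose replicates. Without glucose replicate 2 the differences were -1.20 (limma adjusted p = 0.0158) for RPS20 and -1.25 (limma adjusted p = 0.0167) for RPS13.

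RPS12, of the beak of the subunit's head, had 3.09, 2.87 and 3.51 in the xylose replicates, against 3.75, 2.69 and 4.15 in the glucose replicates. RPS15, a head protein needed for export of the precursor subunit from the nucleus, had 2.72, 2.62 and 2.10 in the xylose replicates, against 3.43, 1.78 and 3.07 in the glucose replicates. Both had glucose replicates 1 and 3 as their 2 highest arrays and glucose replicate 2 lowest, with differences of -0.37 ± 0.41 and -0.28 ± 0.45, which became -0.79 and -0.77 without that array. RPS31, made as a fusion with ubiquitin, had 4.33, 4.35 and 4.19 in the xylose replicates, against 4.94, 3.43 and 4.94 in the glucose replicates, and its difference was -0.15 ± 0.43, or -0.65 without glucose replicate 2. Of the 8 single-copy genes, 5 passed without glucose replicate 2, all lower in xylose, where 5.65% of all genes were called lower. RPS12, RPS15 and RPS31 did not pass (limma adjusted p = 0.123, 0.130 and 0.0681).

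Among the paired genes the lowest difference was that of RPS22A, -1.25 ± 0.53 (SE, limma adjusted p = 0.301), 95% interval -2.49 to 0.00. Its levels were 1.30, 1.13 and 0.13 in the xylose replicates, against 3.12, 1.29 and 1.89 in the glucose replicates. Xylose replicate 3 was lowest, and the 3 glucose arrays lay from about the xylose levels to about 2 log2 units above them. RPS22A neighbours RPS14B on the chromosome, the only such neighbours among the members in the reference annotation, and RPS14B differed by -0.55 ± 0.43. The partner copy RPS22B had 0.46, 0.34 and 0.57 in the xylose replicates, against 1.60, 0.04 and 1.71 in the glucose replicates, with a difference of -0.65 ± 0.46. It was called without glucose replicate 2, at -1.19 (limma adjusted p = 0.0176), whereas RPS22A was not, at -1.65 (limma adjusted p = 0.102), and RPS14B was at -1.01 (limma adjusted p = 0.0693).

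RPS9B, a protein of decoding accuracy, had 1.33, 1.28 and 1.02 in the xylose replicates, against 2.75, 0.78 and 3.07 in the glucose replicates. The xylose arrays fell within 0.4 of each other and below glucose replicates 1 and 3, with glucose replicate 2 lower still. RPS9B had the lowest difference of all members without glucose replicate 2, -1.69 (limma adjusted p = 0.0110), and -0.99 ± 0.58 (SE, limma adjusted p = 0.465) with it. RPS18B, of the head, where it contacts the large subunit, had -0.64, -0.85 and -0.19 in the xylose replicates, against 0.84, -1.03 and 1.34 in the glucose replicates, and its difference was -0.94 ± 0.60 (SE, limma adjusted p = 0.501), or -1.64 (limma adjusted p = 0.0247) without glucose replicate 2.

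RPS1B, at the platform near the mRNA exit, had 0.50, 0.34 and -0.74 in the xylose replicates, against 1.82, -0.05 and 0.97 in the glucose replicates. Here xylose replicate 3 was lowest, glucose replicate 2 stood within the xylose range, and the difference of -0.88 ± 0.54 (SE, limma adjusted p = 0.485) became -1.36 (limma adjusted p = 0.130) without glucose replicate 2. RPS29A, a small zinc-binding head protein, had 2.35, 2.29 and 2.27 in the xylose replicates, against 3.36, 2.66 and 3.47 in the glucose replicates. All 3 glucose arrays of RPS29A, replicate 2 included, lay above all 3 xylose arrays. Its difference of -0.86 ± 0.28 (SE, limma adjusted p = 0.183) had the lowest adjusted p of the 56 genes, with a 95% interval of -1.52 to -0.20, and it was called without glucose replicate 2, at -1.11 (limma adjusted p = 0.0182). RPS11B, of the subunit's body, had -0.52, -0.67 and -0.23 in the xylose replicates, against 0.66, -0.76 and 1.1 in the glucose replicates, and RPS16B, whose tail reaches the tRNA in the peptidyl site, had 1.35, 1.16 and 1.76 in the xylose replicates, against 2.45, 0.73 and 3.02 in the glucose replicates. Both had glucose replicate 2 lowest and passed without it, RPS11B at -1.36 (limma adjusted p = 0.0256) and RPS16B at -1.31 (limma adjusted p = 0.0435).

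At the other end, 4 genes had differences above 0, RPS30B, RPS27A, RPS25B and RPS30A, none of them called and all 4 below 0 with spike-in centring. RPS30B, 1 of the copies for a small protein near the decoding site, had 0.17, 0.20 and -0.08 in the xylose replicates, against 0.05, -1.21 and -0.31 in the glucose replicates. Glucose replicate 2 was lowest by nearly 1 log2 unit, and without it the difference was 0.23 (limma adjusted p = 0.536) against 0.59 ± 0.35 (SE, limma adjusted p = 0.475) with it. RPS30A had 0.67, 0.68 and 0.36 in the xylose replicates, against 0.78, 0.41 and 0.35 in the glucose replicates, with all arrays close together, and a difference of 0.06 ± 0.24 (SE, limma adjusted p = 0.944), the smallest SE of the 56 genes, with a 95% interval of -0.51 to 0.63.

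RPS27A, for a zinc-finger protein, had 0.45, 0.52 and -0.49 in the xylose replicates, against 0.90, -0.58 and -0.25 in the glucose replicates. Replicate 3 of both sugars and glucose replicate 2 were low, and the groups overlapped. The difference of 0.14 ± 0.46 turned to -0.16 (limma adjusted p = 0.858) without glucose replicate 2. RPS25B, for a protein used in initiation at internal entry sites, had 2.30, 2.26 and 2.35 in the xylose replicates, against 2.58, 1.47 and 2.67 in the glucose replicates, and differed by 0.06 ± 0.36. Glucose replicate 2 was its lowest array and all 3 xylose arrays lay below the other 2 glucose arrays, so that its difference turned to -0.32 (limma adjusted p = 0.286) without that array. RPS21A, for a protein that contacts Rps0, had -0.55, -0.62 and -1.28 in the xylose replicates, against -0.28, -0.80 and -1.05 in the glucose replicates, low in replicate 3 of both sugars, and differed by -0.11 ± 0.32.

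The remaining members lay between these ends. RPS0A, RPS0B, RPS4A, RPS4B, RPS8A, RPS8B, RPS10A, RPS10B, RPS14A, RPS16A, RPS17A, RPS17B, RPS18A, RPS19A, RPS19B, RPS23A and RPS23B differed by -0.64 (RPS18A) to -0.13 (RPS10B). RPS1A, RPS6A, RPS6B, RPS7A, RPS7B, RPS11A, RPS21B, RPS24A, RPS24B, RPS25A, RPS26A, RPS26B and RPS29B differed by -0.83 (RPS24A) to -0.15 (RPS26A). None of these was called with all arrays. The calls without glucose replicate 2 among them and RPS27B were RPS0B, RPS4A, RPS4B, RPS7B, RPS8A, RPS16A, RPS18A, RPS19B, RPS24B, RPS26B and RPS27B, from -1.22 (RPS4A) to -0.86 (RPS16A). RPS6, in the second of these groups, is the protein phosphorylated downstream of TOR, and RPS26 is loaded by the chaperone Tsr2.

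The A and B copies were compared by the log2 level of the A copy minus that of the B copy on the same array, in which any constant per array cancels. The level of that difference depends on the brightness of both probes and is not read as a ratio of the copies. Its change between the sugars was at most 0.68 in size over the 24 pairs, with a median size of 0.22, and was above 0 for 15 pairs and below 0 for 9. The groups did not overlap for 4 of the 24 pairs (16.7%), where 26.2% of all 61 A and B pairs on the array were separated. Those 61 include the 24 pairs themselves and 33 large-subunit pairs, so shares over all pairs are no independent background. Of the 37 pairs other than the small-subunit ones 32.4% were separated, and the small-subunit share is above neither. With 3 arrays against 3 the two-sided exact permutation test cannot give a p below 0.1, so none of the 24 pairs could pass 0.05. The count was 5, 7, 8 and 10 with glucose replicate 1, glucose replicate 2, xylose replicate 3 and glucose replicate 3 left out, which leaves fewer values to overlap, and 29.5%, 34.4%, 37.7% and 45.9% of all A and B pairs were then separated. Taken within replicate numbers, the change had 1 sign in all 3 numbers for 11 of the 24 pairs, where 50.8% of all A and B pairs did, and an exact paired test of 3 differences cannot go below 0.25.

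In the RPS9 pair A minus B was -1.60, -1.65 and -1.17 in the xylose replicates, against -2.07, -2.20 and -2.17 in the glucose replicates. The xylose arrays were all higher, and the means were -1.47 ± 0.26 in xylose and -2.15 ± 0.07 in glucose (SD, n = 3 each), a change of 0.68 (exact permutation p = 0.1, the smallest possible). The change was 0.52 within slide 1, 1.0 within slide 2 and 0.65 without glucose replicate 2, signs that follow from groups that do not overlap. RPS9A itself had -0.27, -0.36 and -0.14 in the xylose replicates, against 0.67, -1.42 and 0.90 in the glucose replicates, a difference of -0.31 ± 0.59, or -1.05 (limma adjusted p = 0.0271) without glucose replicate 2. In the RPS29 pair it was -0.13, -0.12 and -0.33 in the xylose replicates, against 0.20, 0.45 and 0.16 in the glucose replicates, lower on every xylose array, with a change of -0.46 (exact permutation p = 0.1) and values of -0.45 and -0.49 within slides 1 and 2. The sugar differences of the copies were -0.86 for RPS29A and -0.40 for RPS29B.

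The RPS30 and RPS25 pairs were the other 2 whose sugars did not overlap. A minus B of RPS30 was 0.49, 0.48 and 0.44 in the xylose replicates, against 0.73, 1.62 and 0.67 in the glucose replicates. The 3 xylose values lay within 0.06 of each other, and the glucose mean was raised by replicate 2, so that the change of -0.53 became -0.23 without that array. For RPS25 it was 1.03, 1.01 and 0.73 in the xylose replicates, against 1.43, 1.20 and 1.05 in the glucose replicates, and the change of -0.30 over all arrays became -0.32 without glucose replicate 2. Both had an exact permutation p = 0.1.

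The RPS22, RPS27 and RPS28 pairs completed the 5 with the largest change, together with RPS9 and RPS30, and their groups overlapped when arrays were not paired. A minus B of RPS22 was 0.83, 0.79 and -0.44 in the xylose replicates, against 1.53, 1.25 and 0.18 in the glucose replicates, a change of -0.59 (unpaired exact permutation p = 0.4), and of -0.69, -0.47 and -0.62 within replicate numbers 1 to 3. For RPS27 it was -1.64, -1.35 and -2.74 in the xylose replicates, against -2.02, -1.91 and -3.38 in the glucose replicates, a change of 0.53 (unpaired exact permutation p = 0.5), and of 0.38, 0.57 and 0.65 within the numbers. RPS27B itself had 2.09, 1.87 and 2.24 in the xylose replicates, against 2.92, 1.33 and 3.14 in the glucose replicates, with no drop in replicate 3, and differed by -0.39 ± 0.48, or -0.96 without glucose replicate 2. In both pairs replicate 3 of either sugar lay well below replicates 1 and 2 of that sugar.

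RPS28B is known to limit its own level by promoting decay of its own mRNA, and A minus B of the RPS28 pair differed from array to array without order by slide. RPS28A had 2.41, 2.24 and 2.95 in the xylose replicates, against 2.75, 2.28 and 3.06 in the glucose replicates, highest on both arrays of slide 2. RPS28B had -0.72, -1.13 and -0.71 in the xylose replicates, against -0.01, -1.13 and 0.54 in the glucose replicates. Their differences were -0.16 ± 0.31 and -0.65 ± 0.43, or -0.37 and -1.12 without glucose replicate 2, neither called. Their A minus B was 3.13, 3.37 and 3.66 in the xylose replicates, against 2.76, 3.41 and 2.52 in the glucose replicates, with a change of 0.49 (exact permutation p = 0.3). In glucose replicate 2 both copies were at or near their lowest levels and A minus B was within the xylose range, whereas glucose replicates 1 and 3 were below it.

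**Figure D3:**
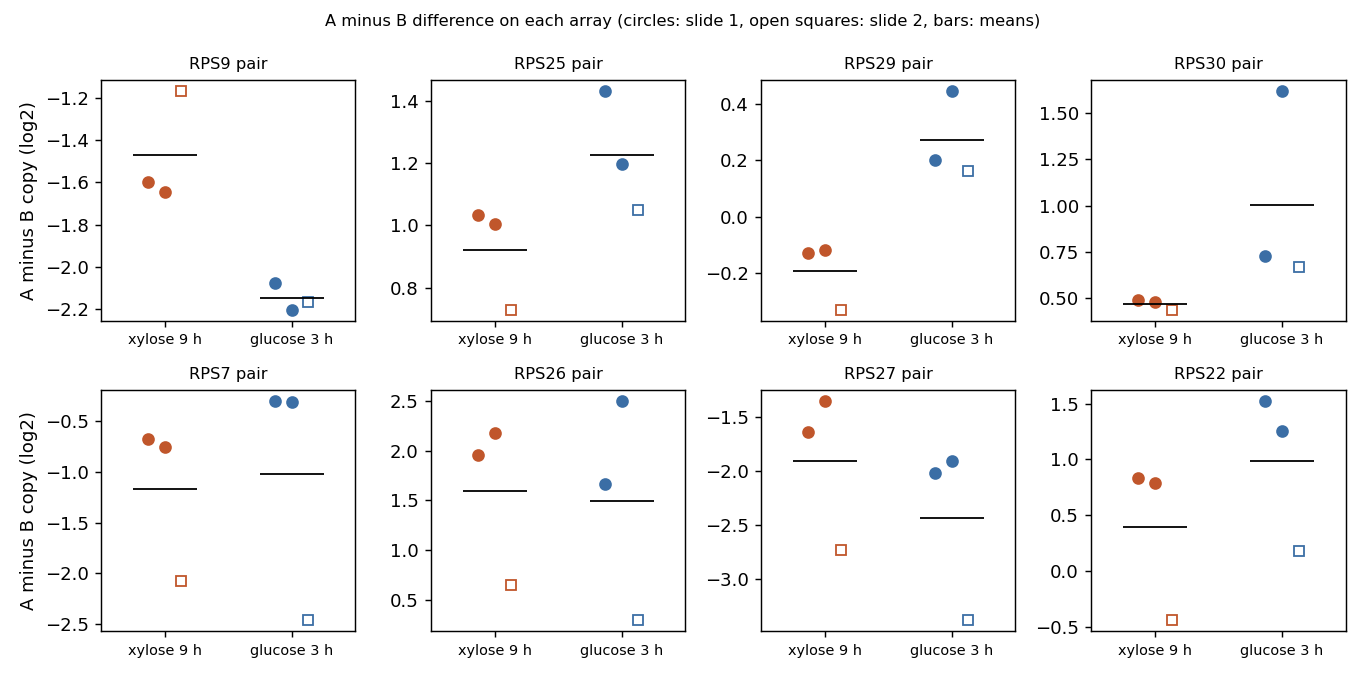
Log2 level of the A copy minus that of the B copy (vertical axis) by sugar (horizontal axis) for the 4 pairs whose sugars did not overlap (upper row) and the 4 pairs with the largest shift between slides (lower row), 1 marker per array, circles for slide 1, open squares for slide 2, bars for group means, each panel with its own scale. In the lower row both open squares lie below all circles, by 0.61 for RPS22 up to 1.32 for RPS7.

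A minus B was also compared between the slides. The 2 arrays of slide 2 lay outside the range of the 4 arrays of slide 1 for 14 of the 24 pairs (58.3%). They lay below it for 10 pairs and above it for 4. Of all A and B pairs on the array 55.7% were apart in this way, and of the 37 other than the small-subunit ones 54.1%. The small-subunit share is near both. The shift between slides was larger than that between sugars for 17 of the 24 pairs, where it was for 68.9% of all pairs, and its median size was 0.38, against 0.40 over all pairs. The slide is also the replicate number, since slide 2 holds only the replicates numbered 3, so slide and replicate cannot be told apart.

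The 4 largest shifts between slides were those of RPS7, RPS26, RPS27 and RPS22. A minus B of RPS7, a protein of the body that Not4 ubiquitinates, was -0.67, -0.76 and -2.07 in the xylose replicates, against -0.30, -0.31 and -2.46 in the glucose replicates. Its slide 2 arrays lay 1.32 below the lowest of slide 1, while its change between sugars was -0.14 (exact permutation p = 0.8). For RPS26, at the mRNA exit, it was 1.95, 2.18 and 0.65 in the xylose replicates, against 1.67, 2.50 and 0.30 in the glucose replicates, a shift of -1.60 between slides and a change of 0.10 between sugars (exact permutation p = 0.9).

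The copies of these pairs were also set apart array by array. RPS7A had 0.32, 0.25 and -1.08 in the xylose replicates, against 1.56, 0.06 and -0.56 in the glucose replicates, low on both arrays of slide 2, whereas RPS7B had 1.0, 1.01 and 0.99 in the xylose replicates, against 1.85, 0.37 and 1.90 in the glucose replicates. RPS26A had 3.55, 3.63 and 2.46 in the xylose replicates, against 4.17, 2.84 and 3.07 in the glucose replicates, and RPS26B had 1.60, 1.45 and 1.81 in the xylose replicates, against 2.50, 0.34 and 2.77 in the glucose replicates. RPS26A was lower in replicate 3 of each sugar than in replicate 1 of that sugar, whereas RPS26B was not. Of single genes 5 of the 56 separated by slide, RPS7A, RPS21A and RPS30A low and RPS11A and RPS28A high on slide 2, where 40.1% of all genes did.

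**Figure D4:**
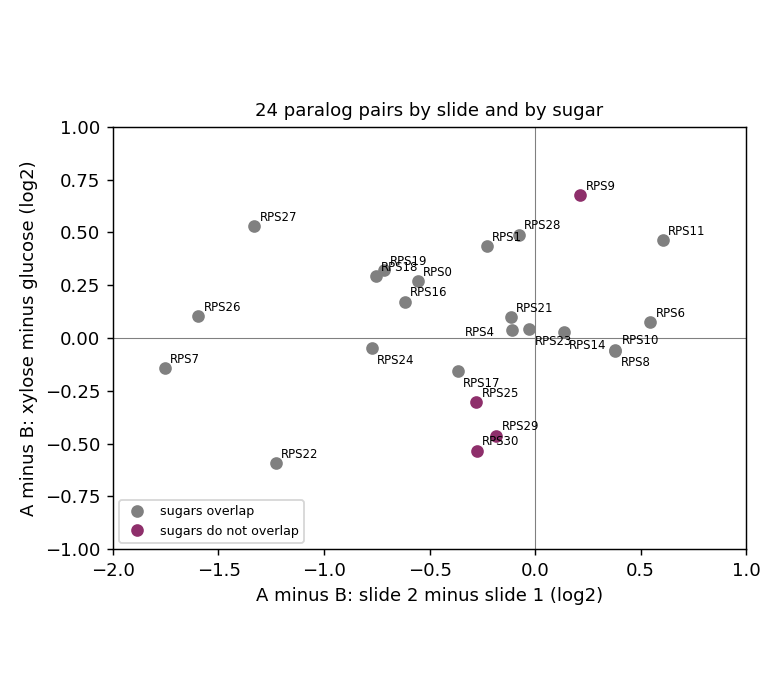
Change of A minus B between slides (slide 2 minus slide 1, horizontal axis) and between sugars (xylose minus glucose, vertical axis), both in log2, for the 24 pairs, 1 point per pair. The points spread from -1.76 to 0.60 along the slide axis and from -0.59 to 0.68 along the sugar axis, and the 4 pairs whose sugars did not overlap (purple) lie within 0.28 of 0 along the slide axis. Each sugar has 1 array on slide 2, so a large shift between slides widens both groups and makes overlap more likely.

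The pairs also differed in how many copies passed without glucose replicate 2. Both copies were called in 4 pairs, RPS4, RPS9, RPS16 and RPS18, 1 copy in 10 pairs and neither in 10. The A copy was called in 6 pairs and the B copy in 12, all lower in xylose, where 5.65% of all genes were called lower. The median differences were -0.72 for the A copies and -0.97 for the B copies, with median SEs of 0.28 and 0.23. With all arrays the median differences were -0.36 and -0.50. The A copies as a set were not tested against the B copies. A copy that passed and a partner that did not are not thereby shown to differ, and the exact test of A minus B could not pass in any pair.

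The 76 genes of the large subunit, the closest group, gave values close to these. With all arrays none of them was called, where 2.52% of all genes tested were. Differences were below 0 for 69 of the 76, against 48.4% of all genes, and the median was -0.49. With glucose replicate 2 left out, 25 of 76 were called lower and none higher, where 5.65% of all genes were called lower. The median of the 76 was then -0.96. Over the 33 A and B pairs of the large subunit, 9 did not overlap between sugars (27.3%), and 19 separated by slide (57.6%). No difference between the subunits was tested.

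**Figure D5:**
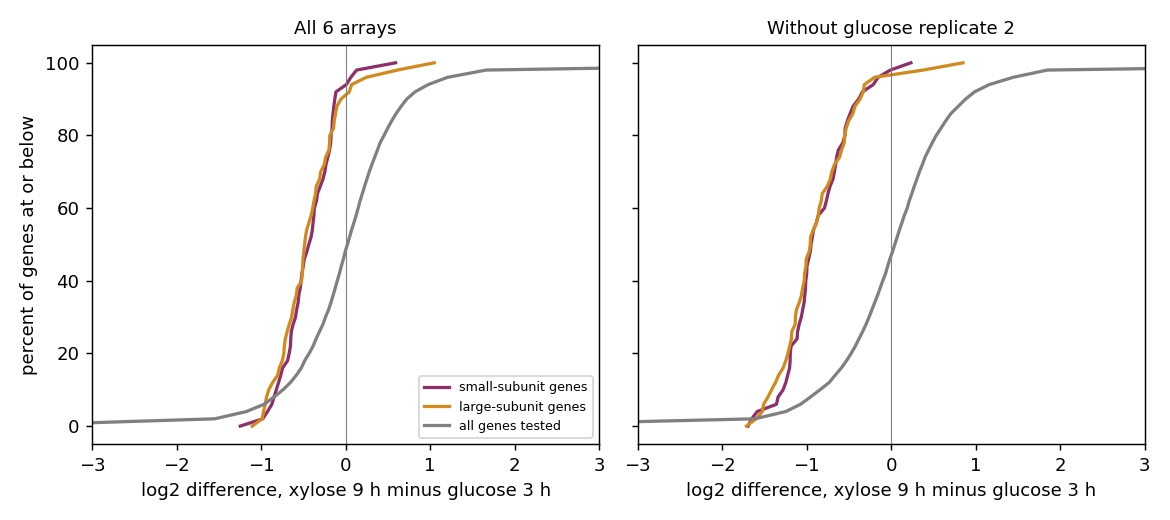
Cumulative percent of genes (vertical axis) at or below a log2 difference, xylose minus glucose (horizontal axis, drawn from -3 to 3), for the 56 small-subunit genes, the 76 large-subunit genes and all 5907 genes tested, with all 6 arrays (left) and without glucose replicate 2 (right). The curves of the 2 subunits run together, with medians of -0.44 and -0.49 at the left and -0.95 and -0.96 at the right, and both medians lie left of that of all genes.

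Other gene lists around the small subunit were set beside these values. Of all genes tested, 2.52% were called with all arrays and 48.4% were below 0. Without glucose replicate 2, 5.65% were called lower, and 47.0% were below 0. Of 7 further ribosome-bound proteins (the stalk proteins, Asc1 and Stm1) none was called, 4 were below 0 and the median was -0.08. Without glucose replicate 2 all 7 were below 0, with a median of -0.57. Without glucose replicate 2, RPP2A, for a stalk protein, was lower (-1.54, limma adjusted p = 0.0226), and ASC1, which sits on the small subunit's head, was not called (-1.19, limma adjusted p = 0.0566). ASC1 had 2.90, 2.84 and 2.30 in the xylose replicates, against 4.15, 2.14 and 3.59 in the glucose replicates, with glucose replicates 1 and 3 highest and glucose replicate 2 lowest. None of 21 small-subunit assembly factors was called with all arrays, 7 had differences below 0, and the median was 0.39, or -0.30 with spike-in centring and 0.55 without glucose replicate 2.

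In the fit without glucose replicate 2, 4 of these assembly factors were higher in xylose, where 5.89% of all genes were called higher. They are named here after their values were seen. LTV1 and RIO1, which act on the late precursor, differed by 1.07 and 0.99, PNO1, which binds near its rRNA end, by 0.95, and BUD23, an rRNA methyltransferase, by 0.89 (limma adjusted p from 0.0246 to 0.0366). LTV1 had -1.71, -1.65 and -1.97 in the xylose replicates, against -2.83, -2.54 and -2.86 in the glucose replicates, with glucose replicate 2 on the side of the other glucose arrays.

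Of 27 transcription factors and kinases that act on ribosomal protein genes none was called with all arrays. The middle gene differed by 0.28, which spike-in centring moved to -0.41 and leaving out glucose replicate 2 to 0.20. Without glucose replicate 2, 1 of the 27 was called higher, where 5.89% of all genes were, and 0 lower. It was TOD6, for a repressor of ribosome biogenesis genes (1.51, limma adjusted p = 0.0366). The 32 genes for small-subunit proteins of the mitochondrial ribosome differed by 0.37 at the median (-0.32 after spike-in centring, 0.19 without glucose replicate 2), and neither fit called any of them.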

How the data were processed

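Total RNA of 6 samples was labelled with Cy3 and measured on 6 one-colour Agilent arrays, 1 per sample, and samples were grouped by their titles. Spot intensity is the scanner software's processed signal, deposited by the authors, who used Agilent Feature Extraction 10.1.1.1 per the submitters' processing notes. Spot flags, other deposited values of 0 or 1, mark detection over background, saturation, non-uniformity and outliers. The deposited table of log2 values equalled the levels used here less 1 constant per array, of at most 0.0156, within 0.001 for 100% of its values, which settles scale and direction and leaves no centring by gene. In replicate order its xylose columns had medians of -1.25, -1.23 and -1.38, and its glucose columns of -1.26, -1.26 and -1.41.

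Control, non-uniform and outlying spots were left out (727 to 1722 of 43792 spots per array left out as non-uniform or outlying, none saturated), each log2 processed signal was set against the 75th percentile of its own array, and a probe's 7 spots were averaged. That percentile lay between 1407 and 3871 units, and 92.3% to 95.6% of probes were well above background on an array. Precision is limited by there being 3 arrays a group. The test took in 5907 of the 6256 probes, those with over 0.5 of their spots well above background on 3 or more arrays. Locus tags of 5756 probes were given symbols from RefSeq's R64 annotation. Differences came from a two-sided test in limma 3.58.1 (R 4.3.3), with sugar as the only term and p-values adjusted by Benjamini-Hochberg over all 5907 probes. The limma step was also run on simulated data. Those arrays were drawn independently, without an outlying array, a slide shift or replicates that deviate together, so that run does not test the effect of these. Pairs were tested by exact permutation over the 6 arrays (20 splits). Alternatives were another background correction, other scalings, no filter and outlying spots kept. Further ones were blocks, slides apart, each array left out, xylose replicates 1 and 2 averaged, and the deposited table. The background correction was normexp with an offset of 50 on the median spot and background signals, since mean spot signals were not available. Spike-in centring used 7 control probes well above background on every array.

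Same-numbered arrays deviated together from their group means across genes (r = 0.40, 0.22 and 0.71 for numbers 1 to 3). Xylose replicate 2 went more closely with glucose replicate 1 (0.41) than with its own number, and replicates 1 and 2 share a slide. The labels give no pairing beyond run numbers, and these values do not settle whether arrays are paired by number. The fit with the replicate block was run beside the unpaired main one. The members, gene lists and tests were chosen with earlier results of these data known. Values in every array are given for members called, the 5 highest and 5 lowest differences, both copies of the 5 pairs with the largest change of A minus B, single-copy genes, and up to 5 members called without glucose replicate 2; copies from the pairs with the largest shift between slides, RPS7 and RPS26, ASC1 and other genes called in that fit were added after their values were seen. No sequences were printed, and 1 member counted in the totals is not reported here by itself.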

Additional observations from a re-analysis of the deposited data

How the results depend on the processing

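The small-subunit genes called with all arrays stayed at 0 under every scaling, filter, block and averaging tried, and leaving out 1 array gave 0 to 23 called lower, 0 higher and medians of -0.95 to -0.18. The 23 came from leaving out glucose replicate 2, and this count became 0 with xylose replicates 1 and 2 averaged, 53 with the slide block (3812 of all genes called), 1 with normexp and 3 with spike-in centring, all chosen after seeing the data; the cause was not tested. The replicate block called 310 genes in all against 149 and changed no call of a small-subunit gene (lowest adjusted p = 0.102). Counts over all genes were 53 with normexp, 131 with spike-in centring, 690 with the slide block, 12 with xylose replicates averaged and 12 to 682 with 1 array left out. The median was -1.13 with spike-in centring. Pairs whose sugars did not overlap numbered 4 to 10 with 1 array left out, where 26.2% to 45.9% of all A and B pairs did not. Within slide 1 they numbered 14, but its 4 arrays leave few values to overlap. That count has no share over all pairs beside it and is not read as a result.

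Of the 56 differences, 9 changed sign within slide 1, 4 with spike-in centring, 2 within slide 2, 1 with xylose replicates averaged and 1 to 15 with 1 array left out (15 without glucose replicate 1), none called where its sign changed; the replicate block and the other settings turned none. Those of the genes that the naming rule chose were as follows. With spike-in centring they were -0.63 for RPS30A, -0.63 for RPS25B, -0.55 for RPS27A and -0.099 for RPS30B. Within slide 1 they were 0.059 for RPS9A, 0.062 for RPS15 and 0.15 for RPS31, within slide 2 -0.32 for RPS25B and -0.25 for RPS27A, and with xylose replicates averaged -0.026 for RPS27A. With 1 array left out the ranges were -1.0 to 0.0052 for RPS3, -1.05 to 0.12 for RPS9A, -0.77 to 0.052 for RPS15, -0.28 to 0.12 for RPS21A, -0.32 to 0.28 for RPS25B, -0.16 to 0.57 for RPS27A, -0.37 to 0.020 for RPS28A, -0.024 to 0.19 for RPS30A and -0.65 to 0.10 for RPS31. The causes were not tested. All small-subunit genes were well above background on all arrays, which does not test how far their values depend on the background correction.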
